A study of Mus musculus with 42 samples.

Results

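Kv3 channels are voltage-gated potassium channels, and 3 of the genes that encode their subunits were followed here in cerebellar neurons: Kcnc1 (Kv3.1), Kcnc2 (Kv3.2) and Kcnc4 (Kv3.4). These 3 of 18194 named genes were measured on an Affymetrix MOE430.2 array, an oligonucleotide microarray. On it a probe set is a group of short probes that together give 1 value. All probe sets that the array's annotation gives to 1 of these symbols were used. This gave 7 of 45101 probe sets, of which 4 are for Kcnc1, 1 for Kcnc2 and 2 for Kcnc4, and none is shared with another symbol. All 7 passed the filter on dim probe sets, a log2 value above 5 on at least 3 arrays, as did 41895 probe sets in all.

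Kv3 channels open only when a neuron is strongly depolarised and close quickly again, so they shorten the action potential and let a neuron fire at high rates. Subunits assemble as tetramers, also of different Kv3 members, and the kinetics depend on which are present: Kv3.4 inactivates fast, whereas Kv3.1 and Kv3.2 inactivate little. In the cerebellum, Purkinje cells are the output neurons of the cortex and fire at high rates without input, and stellate and basket cells are the inhibitory interneurons of the molecular layer that synapse onto them.

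The study profiled neurons that were picked by hand for GFP and soma size from the cerebellum of Gad67-GFP BAC transgenic G42 mice, labelled male. The GFP transgene is driven by Gad1 (Gad67) sequences and marks GABAergic neurons, so the 2 cell types were told apart by size, and every group shares the transgene, the slicing, the protease step and the blockers AP5, CNQX and TTX. Purkinje cells were taken at postnatal days 3, 7 and 14 (P3, P7 and P14), on 3 arrays at each age, and on 4 arrays at each of P21, P28, P35 and P56. Stellate/Basket cells were taken at P14 (4 arrays), P21 (3), P28 (4), P35 (2) and P56 (2). PolyA RNA went through 2 rounds of amplification before hybridisation, and the labels call the arrays of a group biological replicates.

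Values are the deposited log2 levels, which run from 3.94 to 14.6, and array medians lie between 5.91 and 6.16. A difference of 1 on this scale is a 2-fold difference. A difference was called where limma's moderated test gave a Benjamini-Hochberg adjusted p under 0.05 over all probe sets kept and the difference was at least 1 in size; "rose", "fell", "higher in" and "lower in" below refer to called differences. No level of one probe set is set against that of another, since probe sets differ in how well they hybridise. The small number of arrays, above all 2 in the Stellate/Basket groups at P35 and P56, limits the precision.

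The labels were set against lists of cell type markers, each summarised as the mean log2 level of its measured members. Gad1 lay between 11.47 and 12.91 on all 40 arrays. The 8 measured of 10 Purkinje markers averaged 12.59 to 13.16 on every Purkinje array from P14 on, but 6.92 to 9.58 at P3 and 9.61 to 10.72 at P7, where the 6 measured of 7 molecular layer interneuron markers averaged 8.72 to 10.28 and the 5 of 5 Golgi and unipolar brush cell markers 8.79 to 9.27. From P14 on, those 2 lists averaged 5.59 to 6.47 and 5.99 to 6.66 on Purkinje arrays. In Stellate/Basket cells the interneuron markers averaged 9.40 to 10.86 from P14 to P35 and 5.73 and 6.39 at P56, where Kit, Tfap2b, Ptprk, Lypd6, Gjd2 and Sorcs3 each lay under 7 on both arrays. On those 2 arrays the Purkinje markers averaged 11.14 and 12.62 and the 8 of 8 astrocyte and Bergmann glia markers 10.57 and 10.94, so the P56 pair goes against its label by these lists. Purkinje markers were also present on the younger Stellate/Basket arrays, at 8.02 to 9.35 at P14, 8.85 to 10.53 at P21, 10.41 to 10.68 at P28 and 10.02 and 10.44 at P35. Glial markers on Stellate/Basket arrays averaged 6.64 to 8.38 at P14 and 9.36 to 10.40 from P21 to P35. Granule cell markers (5 of 5) lay between 5.84 and 8.33, oligodendrocyte markers (4 of 5) between 6.08 and 7.38 and microglia markers (4 of 4) between 5.69 and 6.92 over all groups. These ranges pool the cell types. Averaged over the shared ages, 3 of 5 granule cell markers (median -1.47) and 6 of 8 glial markers (median -3.24) were lower in Purkinje cells. In both lists 0 were higher, and 9.19% of all probe sets were called. Their part in the differences below was not tested. Xist, expressed from the inactive X of females, was above 9 on 27 of 40 arrays labelled male, on 0 of 3 Purkinje and 4 of 4 Stellate/Basket arrays at P14.

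The 250 bases before the annotated start of each gene were searched on both strands for motifs of factors known to act on neuronal potassium channel genes: TGACG (a half-site for CREB, which is known to act on the Kcnc1 promoter), GGGCGG (a GC box, bound by Sp factors) and CANNTG (an E-box). RefSeq's table for GRCm38.p6 holds 1 start for Kcnc1, 4 for Kcnc2 and 1 for Kcnc4. The sites below show what the windows of the 3 genes share and where they differ, with the motif in capitals, each printed 5′ to 3′ on the strand of the gene.
Kcnc1 CREB half-site, chr7:46396222-46396246, plus strand: cacctcggtgTGACGggggcgcggg
Kcnc4 CREB half-site, chr3:107458948-107458972, minus strand: ctccccgttcTGACGctgcctcctt
Kcnc1 GC box, chr7:46396326-46396350, plus strand: aggcaacgaaGGGCGGgcgccccca
Kcnc2 GC box, chr10:112269958-112269982, plus strand: gctccagagaGGGCGGaggacggtg
Kcnc4 GC box on the opposite strand of the gene, chr3:107458908-107458932, minus strand: agggcagcggCCGCCCcaagccgga

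The half-site starts 236 bases before the Kcnc1 start and 64 before the Kcnc4 start, and 0 of the 4 Kcnc2 windows hold it. It is found in 17.8% of 32851 windows of the same length. GC boxes number 3 for Kcnc1, 1 for Kcnc4 and 1 in 1 of the 4 Kcnc2 windows, against 32.7% of windows with at least 1. E-boxes number 1 for Kcnc1, 1 for Kcnc4 and 1 to 3 in each Kcnc2 window, against 66.2% of windows. The Kcnc1 and Kcnc4 windows are rich in G and C (74.4% and 68.0%), those of Kcnc2 less so (52.4% to 58.8%). These matches describe letters, and no binding was measured.

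Of the 7 probe sets, the brighter of the 2 for Kcnc4 separated the cell types on average. It was lower in Purkinje than in Stellate/Basket cells at every shared age, by 7.58- to 8.84-fold from P14 to P35 and by 2.48-fold at P56, a call that was lost without 1 Stellate/Basket array. In Purkinje cells it fell between P7 and P14, where interneuron markers fell too, and in Stellate/Basket cells it fell between P35 and P56, on P56 arrays whose markers go against their label. The other Kcnc4 probe set gave an average cell type difference of -0.06. On 2 of its 4 probe sets Kcnc1 rose in Purkinje cells between P7 and P14, a step in which Purkinje markers rose and interneuron markers fell. On the same 2 it was higher in Purkinje than in Stellate/Basket cells at P14. Later differences were uneven between ages and between these 2 probe sets. Kcnc2 lay near the bottom of the scale in both cell types, and none of its differences was called.

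**Figure D1:**
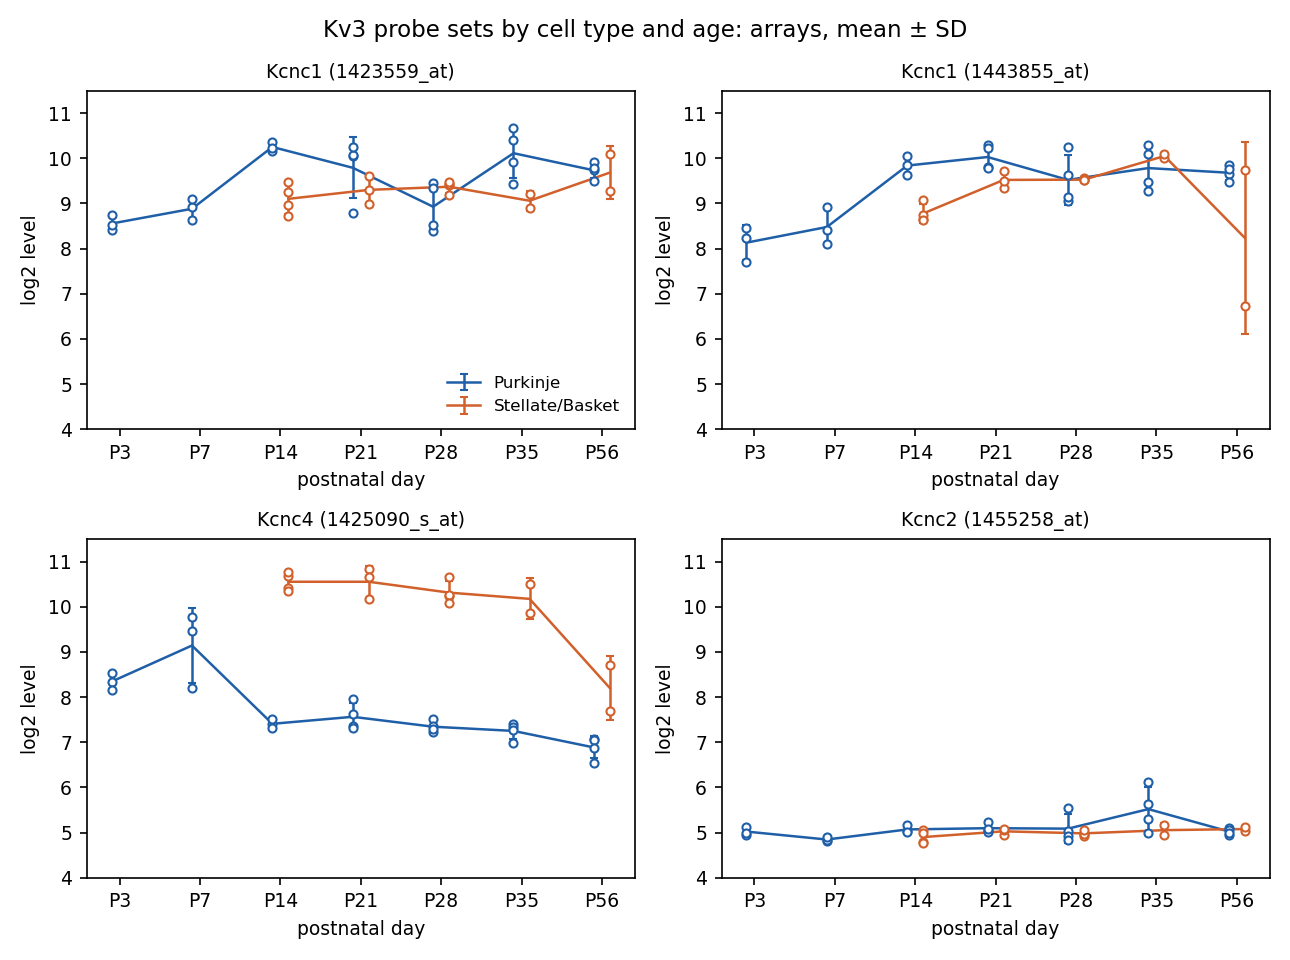
Log2 level (vertical axis) by postnatal day (horizontal axis, ages spaced evenly) of the 2 brightest Kcnc1 probe sets, the brighter Kcnc4 probe set and the Kcnc2 probe set. Open circles are arrays, lines join group means and bars are SD over 2 to 4 arrays, with Purkinje in blue and Stellate/Basket in orange. Kcnc4 in Stellate/Basket cells stands above every Purkinje array from P14 to P35 and is lower at P56, while the Kcnc1 panels show the Purkinje step between P7 and P14 and a single low Stellate/Basket array of 6.74 at P56.

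Kcnc4 encodes the fast-inactivating Kv3.4, and its brighter probe set (1425090_s_at) is described first. In Stellate/Basket cells the levels were 10.41, 10.35, 10.68 and 10.78 at P14 and 10.84, 10.66 and 10.16 at P21. They were 10.24, 10.67, 10.27 and 10.08 at P28 and 9.85 and 10.50 at P35. These 13 arrays span about 1 log2 unit, with no age apart from the others. At P56 the 2 arrays gave 7.70 and 8.70, below all the younger ones.

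In Purkinje cells the same probe set gave 8.52, 8.34 and 8.17 at P3 and 8.20, 9.77 and 9.47 at P7. From P14 it was low: 7.40, 7.51 and 7.32 at P14, 7.35, 7.96, 7.31 and 7.63 at P21, and 7.22, 7.52, 7.35 and 7.29 at P28. The later arrays gave 7.40, 7.34, 6.99 and 7.28 at P35 and 7.06, 7.06, 6.88 and 6.54 at P56. The P3 and P7 arrays thus lay above all 19 later Purkinje arrays, and at each shared age every Stellate/Basket array lay above every Purkinje array.

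Averaged over the 5 shared ages, the Kcnc4 difference (Purkinje minus Stellate/Basket) was -2.67 ± 0.12 (SE; 19 and 15 arrays; adjusted p = 1.54e-18), with a 95% interval of -2.92 to -2.42. It was the only probe set called among the 7, where 9.19% of all probe sets were called. From the youngest shared age to the oldest the difference was -3.14, -2.99, -2.97, -2.92 and -1.31, called each time, with adjusted p from 3.03e-11 to 8.36e-04. Members called numbered 3, 1, 1, 2 and 2 of 7 at these ages, against 11.3%, 11.3%, 14.1%, 8.90% and 16.0% of all probe sets. In bulk samples such as these, fewer cells of a type and less RNA per cell cannot be told apart.

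This difference was fitted again with measures of sample make-up and with arrays left out. With the glial marker mean as a covariate the average difference was -2.58 (adjusted p = 1.82e-05) and at P56 -1.18, no longer called (adjusted p = 0.357). Over arrays with Xist above 9 alone, which leaves P21 to P56, it was -2.45, and with P56 left out -3.01. Without Stellate/Basket P56 replicate 3, the array of 8.70, the P56 difference was -0.81 and not called (adjusted p = 0.128). At P14 the Xist split and the cell type cannot be told apart.

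**Figure D2:**
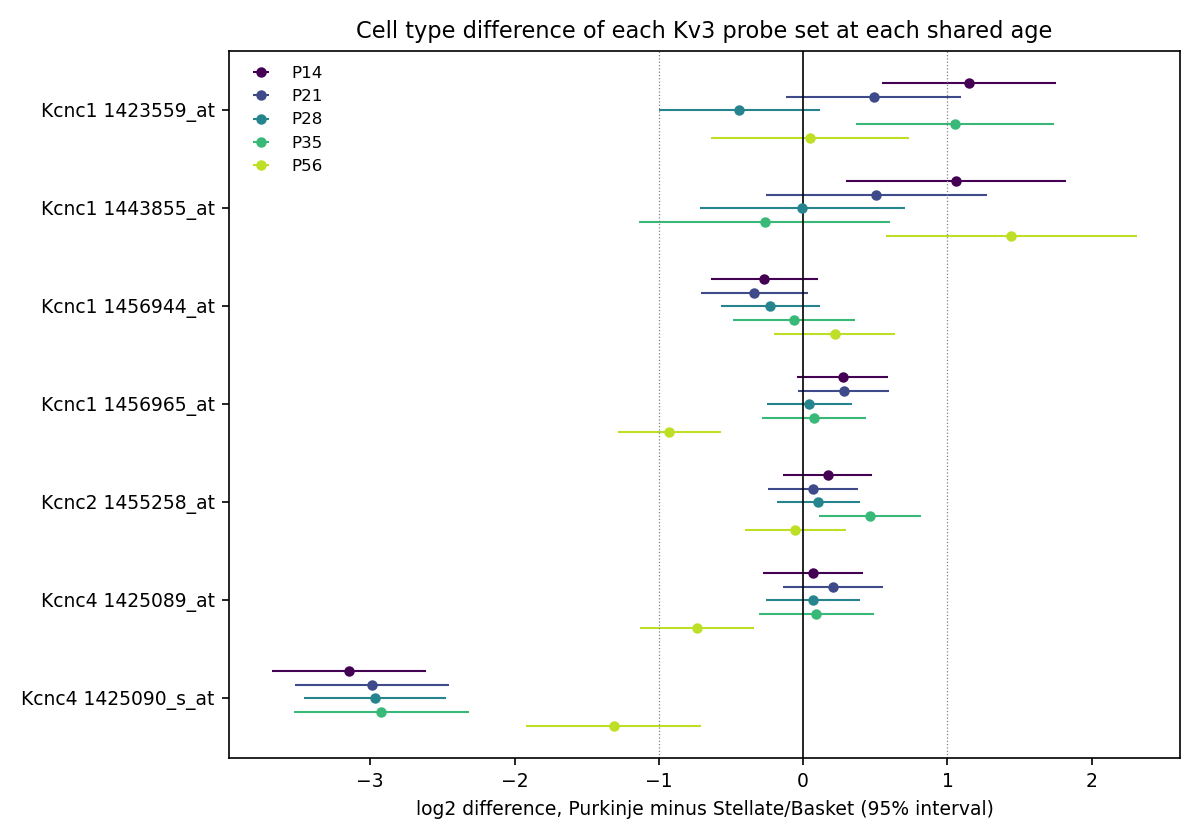
Difference between the cell types (horizontal axis, log2 level in Purkinje minus Stellate/Basket cells) for each of the 7 probe sets, with points coloured by age from P14 to P56. Bars are 95% intervals of the limma fit and dotted lines mark a 2-fold difference. The brighter Kcnc4 probe set lies at -3.14 to -2.92 from P14 to P35 and at -1.31 at P56, while the other 6 scatter around 0 and pass 2-fold only for Kcnc1 at P14, P35 and P56.

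With age, Kcnc4 fell in Purkinje cells by 1.46 on the log2 scale from P3 to P56 (SE 0.26; 3 and 4 arrays; adjusted p = 4.94e-05). Of the 7 members 3 were called in this comparison, 2 Kcnc1 probe sets higher and this one lower, against 13.6% of all probe sets. The fall lay between P7 and P14 (-1.73, SE 0.28, adjusted p = 1.80e-05), a step with 3 members called against 9.98% of probe sets. Between P3 and P7 the difference was 0.80 and was not called; without Purkinje P7 replicate 1, the array of 8.20, it was 1.27 and called (adjusted p = 0.0106). From P14 to P56 the difference was -0.52 (adjusted p = 0.2), and limma called 0 members, against 1.58% of probe sets, with 3 of 7 at an unadjusted p under 0.05. In the step from P7 to P14 the interneuron markers also fell (6 of 6 called, median -4.08), as did 4 of 5 Golgi and unipolar brush cell markers (median -2.91). Among glial markers 3 of 8 fell (median -1.05) and among granule cell markers 2 of 5 (median -0.995), with 0 higher in these lists. Their part in the Kcnc4 step was not tested. The P3 to P56 difference was -1.45 over arrays with Xist above 9 and -1.56 over those below.

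In Stellate/Basket cells Kcnc4 fell by 2.35 from P14 to P56 (SE 0.30; 4 and 2 arrays; adjusted p = 2.08e-07), with 2 of 7 members called against 15.4% of probe sets. Most of it lay in the step from P35 to P56 (-1.98, SE 0.34, adjusted p = 1.24e-04; 2 members called against 8.79%). With P35 as the last age the difference was -0.38 (adjusted p = 0.474). Purkinje and Stellate/Basket changes from P14 to P56 differed by 1.83 ± 0.40 (SE; adjusted p = 8.89e-04; 2 members called against 16.0%), and 0.22 (adjusted p = 0.848) with P35 as the last age. Interneuron markers dropped on the same P56 arrays and Purkinje markers were high there, as given above, and their part in the fall was not tested. With the glial marker mean as a covariate the fall from P14 to P56 was -2.45.

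**Figure D3:**
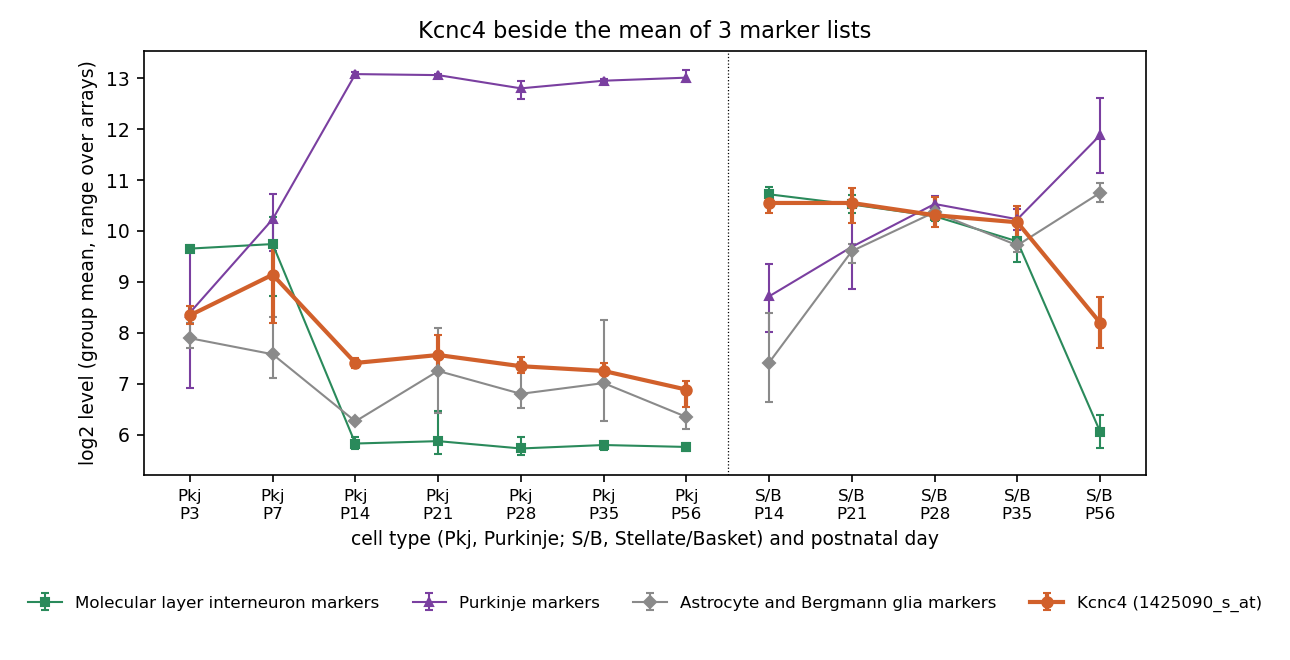
Group mean log2 level (vertical axis) of the brighter Kcnc4 probe set and of the means of 3 marker lists, by cell type and age (horizontal axis); bars are the range over arrays. Both Kcnc4 and the interneuron markers are higher in Stellate/Basket cells from P14 to P35 than in Purkinje cells of those ages. At Purkinje P3 and Stellate/Basket P56 Kcnc4 is at 8.34 and 8.20, with overlapping arrays, and the interneuron markers are at 9.65 and 6.06. Heights of different curves are not comparable as amounts.

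Ordered by mean level, the 4 Stellate/Basket groups from P14 to P35 came first for Kcnc4, at 10.55 (P14 and P21), 10.31 (P28) and 10.17 (P35). Purkinje P7 followed at 9.14 ± 0.83 (SD), then Purkinje P3 at 8.34 ± 0.18 and Stellate/Basket P56 at 8.20 ± 0.71. Purkinje P21, P14, P28, P35 and P56 closed the order at 7.57, 7.41, 7.35, 7.25 and 6.89. Only 1 of the 11 neighbouring pairs, Stellate/Basket P35 and Purkinje P7, had arrays that did not overlap.

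The second Kcnc4 probe set (1425089_at), which the annotation ties to the same transcript record, did not show this pattern. Its levels lay between 6.96 and 7.54 on all arrays from P14 to P35 of both cell types. The average cell type difference was -0.06 (95% interval -0.22 to 0.10). At P56 it was 6.46, 6.74, 6.63 and 6.45 in Purkinje cells, below every younger Purkinje array, and 6.67 and 7.94 in Stellate/Basket cells. The P14 to P56 difference in Purkinje cells was -0.84 and that between the cell types at P56 -0.74 (adjusted p = 0.00163 and 0.0034), both under 2-fold and so not called. The latter was -1.37 and called without Stellate/Basket P56 replicate 1 (adjusted p = 2.33e-07) and -0.10 without replicate 3. Across the 12 group means the 2 Kcnc4 probe sets correlated with r = 0.17, a description over points that share arrays. Averaging them gave a cell type difference of -1.36.

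Kcnc1 encodes Kv3.1, and its brightest probe set (1423559_at) is given in full. In Purkinje cells it gave 8.41, 8.73 and 8.52 at P3 and 8.93, 9.09 and 8.62 at P7. At P14 it gave 10.36, 10.16 and 10.23, above all 6 earlier arrays. At P21 the arrays were at 8.78, 10.05, 10.08 and 10.25, and at P28 at 8.40, 8.52, 9.46 and 9.34. At P35 they were at 9.93, 9.43, 10.68 and 10.41 and at P56 at 9.92, 9.73, 9.79 and 9.49. Levels after P14 were uneven among arrays, with replicate 1 apart at P21 and 2 low arrays at P28.

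In Stellate/Basket cells this probe set gave 8.97, 9.24, 9.47 and 8.72 at P14 and 8.99, 9.60 and 9.31 at P21. It gave 9.40, 9.43, 9.46 and 9.18 at P28, 8.90 and 9.21 at P35, and 10.10 and 9.27 at P56. These 15 arrays span 8.72 to 10.10, and the test over the 5 ages did not pass (adjusted p = 0.537, where 36.7% of probe sets passed). Over the 7 Purkinje ages it passed (adjusted p = 3.69e-05, where 52.4% passed).

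Kcnc1 rose in Purkinje cells from P3 to P56 by 1.18 ± 0.30 (SE; 2.26-fold; adjusted p = 0.0025). The rise lay between P7 and P14 (1.37 ± 0.32, adjusted p = 0.00189), and the P14 to P56 difference of -0.52 was not called (adjusted p = 0.275). From P7 to P56 the difference was 0.85, under 2-fold. The P3 to P56 rise was 1.07 over arrays with Xist above 9 and 1.35 over those below. A further step from P28 to P35 was called (1.18, adjusted p = 0.031; 1 member against 0.253% of probe sets), with overlapping arrays. That call was lost without any 1 of Purkinje P28 replicates 1 and 2 and P35 replicates 3 and 4 (0.99 to 1.08), and over arrays with Xist above 9 the step was 0.28. The step from P21 to P28 (-0.86, adjusted p = 0.0703) became a called fall without Purkinje P21 replicate 1 (-1.20) or without P28 replicate 3 (-1.04). In the earlier step from P7 to P14, 6 of 8 Purkinje markers rose too (median 2.68) and 6 of 6 interneuron markers fell (median -4.08). Their part in the Kcnc1 rise was not tested.

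Between cell types, Kcnc1 differed by 0.46 ± 0.14 on average (adjusted p = 0.00618), with the Purkinje mean above the other but under 2-fold and so not called. It was higher in Purkinje cells at P14 (1.15, adjusted p = 0.00431) and P35 (1.05, adjusted p = 0.0292), where the arrays did not overlap. At P21, P28 and P56 the differences were 0.49, -0.44 and 0.05. The P35 call was lost without Purkinje P35 replicate 3 (0.86) or 4 (0.95), or without Stellate/Basket P35 replicate 1 (0.90) or 2 (1.21, adjusted p = 0.0708). The change from P14 to P56 differed between the cell types by -1.10 (adjusted p = 0.062), which was not called.

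By mean level, Purkinje P14 (10.25 ± 0.10 SD), P35 (10.11), P21 (9.79) and P56 (9.73) led the order for this probe set. The 5 Stellate/Basket groups followed from 9.68 (P56) to 9.06 (P35), and Purkinje P28 (8.93), P7 (8.88) and P3 (8.56) came last. Arrays overlapped in all 11 neighbouring pairs.

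The next brightest Kcnc1 probe set (1443855_at) shared the Purkinje rise. It gave 8.46, 7.70 and 8.24 at P3, 8.91, 8.11 and 8.41 at P7 and 9.86, 10.04 and 9.62 at P14. From P21 to P35 the 12 Purkinje arrays lay between 9.06 and 10.30, and at P56 they gave 9.86, 9.64, 9.76 and 9.47. It rose by 1.55 ± 0.38 (SE) from P3 to P56 (adjusted p = 0.00175) and by 1.36 from P7 to P14 (adjusted p = 0.0159), with no overlap of arrays. The latter call was lost without Purkinje P7 replicate 2 (1.18) or P14 replicate 2 (1.26). With the glial marker mean as a covariate the P3 to P56 difference was 1.15 and not called (adjusted p = 0.0788).

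In Stellate/Basket cells this probe set gave 9.09, 8.65, 8.75 and 8.64 at P14, 9.35, 9.72 and 9.50 at P21, between 9.51 and 9.56 at P28, and 10.01 and 10.09 at P35. It rose by 1.27 from P14 to P35 (adjusted p = 0.0485; 1 member called against 5.15% of probe sets). Over the same ages 4 of 8 Purkinje markers rose in these cells (median 2.25) and 6 of 8 glial markers (median 2.40), and their part in this rise was not tested. At P56 the arrays gave 9.74 and 6.74, which differ by more than any other pair within a group on this probe set. The calls that rest on the low array (replicate 3) ended without it: the cell type difference at P56 went from 1.44 to -0.06, and the step from P35 to P56 from -1.81 to -0.31. The higher level in Purkinje cells at P14 (1.06, adjusted p = 0.0415) was lost without any 1 of the 7 arrays of that age other than Stellate/Basket replicate 1 (0.96 to 1.17) and was 0.32 with Xist as a covariate.

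The other 2 Kcnc1 probe sets did not show the Purkinje rise. Their P3 to P56 differences were -0.33 (1456944_at) and -0.29 (1456965_at), neither called. The first gave 6.95, 7.49, 7.34 and 7.45 in Stellate/Basket cells at P14 and 6.56 and 5.81 at P56, a fall of 1.13 (adjusted p = 7.76e-05). Without Stellate/Basket P56 replicate 3 it was -0.75 and not called. The second gave 6.88, 7.06, 7.14 and 6.92 at P14 against 7.26 and 8.04 at P56 there, while Purkinje arrays gave 7.15, 7.36 and 7.32 at P14 and 6.76, 7.16, 6.31 and 6.65 at P56. Its change from P14 to P56 differed between the cell types by -1.20 (adjusted p = 3.04e-04), and by -0.81, not called, without that same array. Replicate 3 was thus the lowest or highest Stellate/Basket array on 3 of the 4 Kcnc1 probe sets.

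**Figure D4:**
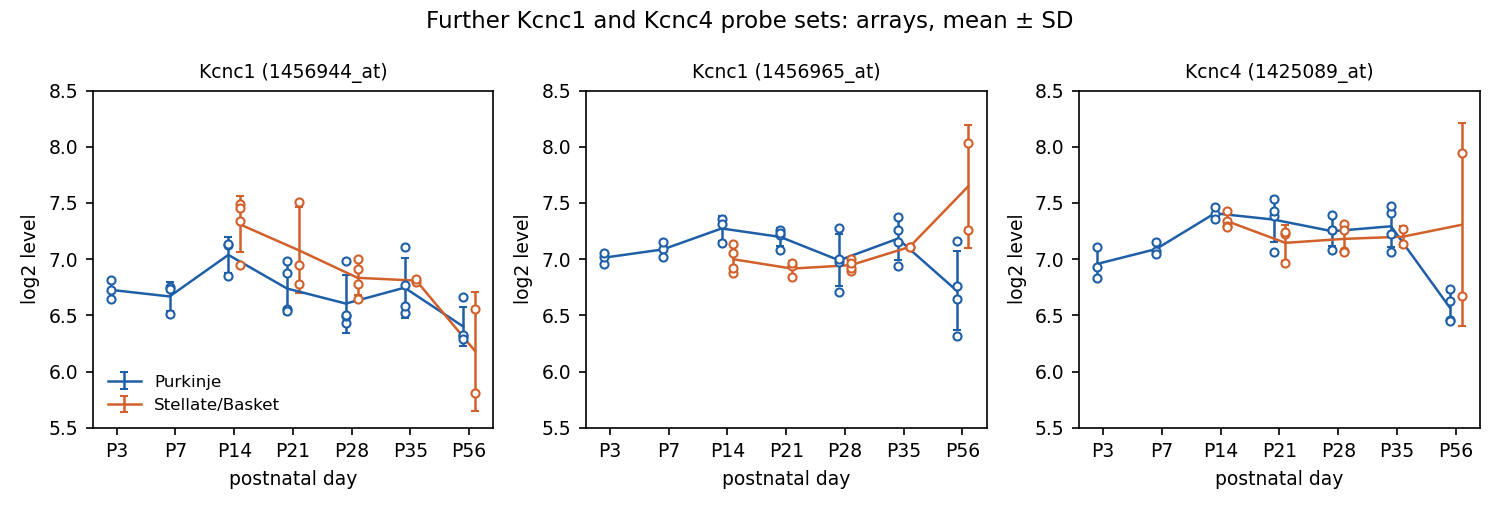
Log2 level (vertical axis) by postnatal day (horizontal axis, ages spaced evenly) of the 2 dimmer Kcnc1 probe sets and the dimmer Kcnc4 probe set; circles are arrays, lines join group means and bars are SD. From P3 to P35 all arrays lie between 6.43 and 7.51 or, for Kcnc4, between 6.83 and 7.54, and the 2 Stellate/Basket arrays at P56 stand apart from each other in each panel.

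Averaged over its 4 probe sets, Kcnc1 gave a P3 to P56 difference of 0.53 in Purkinje cells (adjusted p = 0.00741), under 2-fold. The probe sets correlated with the brightest one across the 12 group means with r = 0.52 (1443855_at), 0.35 (1456965_at) and -0.08 (1456944_at). So 2 of 4 probe sets carry the Kcnc1 rise.

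Kcnc2 encodes Kv3.2, which is known from interneurons and thalamocortical cells. Its single probe set (1455258_at) lay between 4.77 and 6.13, above the array's median on 1 of 40 arrays and above 5 on 24. In Stellate/Basket cells the median was 5.0 (lowest 4.77, highest 5.17, n = 15), and in Purkinje cells 5.04 (4.82 to 6.13, n = 25). The highest arrays were Purkinje P35 replicates 3 and 4 at 6.13 and 5.64, beside 5.31 and 5.0 in the same group. The average cell type difference was 0.15 (95% interval 0.01 to 0.30; adjusted p = 0.0749). From P3 to P56 the Purkinje difference was 0.00 (-0.31 to 0.31). The test over the 7 Purkinje ages passed (adjusted p = 0.0127), and none of the age differences tested reached 2-fold. Limma called 0 of its 23 comparisons, of which 5 had an unadjusted p under 0.05. Arrays overlapped in all 11 neighbouring pairs of its ordered groups.

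The brightest probe sets of Kcnc1 and Kcnc4 moved in opposite directions in Purkinje cells between P7 and P14. In that step the other Kcnc4 probe set (1425089_at) went from 7.09 to 7.41, the direction of Kcnc1, and was not called. Group means of the brightest Kcnc1 probe set and the brighter Kcnc4 probe set correlated with r = -0.48 over the 12 groups, with 40 arrays shared. The sign depends on the probe set: against the same Kcnc4 probe set r was -0.16 for 1443855_at, -0.18 for 1456965_at and 0.56 for 1456944_at, and against 1425089_at it was 0.25 for 1423559_at. By the likeness of the 12 group means, over 4411 genes with an SD of at least 0.5, the genes nearest to Kcnc4 were Parm1 (r = 0.98), Plch2 (0.98), Lncppara (0.98) and Syt9 (0.98). For Kcnc1 they were Arhgap32 (0.89), Syt7 (0.86), Plxdc2 (0.86) and Pcp4l1 (0.86). For Kcnc2, whose group means have an SD of only 0.16, they were Rab37 (0.82), Ankrd6 (0.78), Kank4 (0.73) and Tmem144 (0.71).

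Among genes for partners and regulators of Kv3 channels (10 tested of 13 listed), 0 were higher and 1 was lower in Purkinje cells on average, with a list median of -0.29 against 0.00 over all probe sets. That is 1 of 10, where 9.19% of all probe sets were called in either direction. Each gene in this list and the following ones is read from 1 probe set, that of highest mean level. Other probe sets of these genes are not described. Prkce, a protein kinase C isoform, was lower (-1.89, adjusted p = 8.58e-14). Creb1, which encodes CREB, differed by -0.88, under 2-fold, but it was lower in Purkinje cells at P14, P21, P28 and P35 (-1.28, -1.23, -1.22 and -2.02) and higher at P56 (1.35). Both fell in Purkinje cells from P3 to P56, Prkce by 1.94 and Creb1 by 1.11 (adjusted p = 2.10e-06 and 0.0191), with 0 higher and 2 lower (13.6% of all probe sets called) and a median of -0.44 against -0.04. Both fell between P7 and P14 (-2.65 and -1.46), when the brightest Kcnc1 probe set rose and the brighter Kcnc4 probe set fell. Both also fell in Stellate/Basket cells from P14 to P56 (-1.86 and -2.16), with a median of -0.35 against 0.06, on the P56 arrays whose markers go against the label. The change differed between the cell types for 3 of the 10, all upward, where 16.0% of probe sets were called, and Ank3, an anchor of channels at the axon initial segment, was one of them (1.26, adjusted p = 0.00504). From P14 to P56 in Purkinje cells 0 of the 10 were called with limma (2 at an unadjusted p under 0.05), the largest differences being 0.55 (Prkce) and -0.50 (Kcne4).

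Among the other voltage-gated potassium channel alpha subunits (23 tested of 28), 3 were higher and 1 lower in Purkinje cells on average, against 9.19% of all probe sets called, with a median of 0.02. Kcna6 (1.87), Kcnd2 (1.64) and the modifier subunit Kcng4 (1.02) were higher, and Kcna2, which encodes a subunit of low-threshold channels prominent at basket cell terminals, was lower (-1.19, adjusted p = 4.06e-13). From P3 to P56 in Purkinje cells 6 rose and 1 fell, against 13.6% called, with a median of 0.14 against -0.04. Kcng4 (3.66), Kcna1 (3.53) and Kcns2 (1.46) rose and Kcnq3, a subunit of the M-current, fell (-1.51). Between P7 and P14, 4 rose and 1 fell, against 9.98% called, led by Kcna1 (2.66) and Kcng4 (2.03). From P14 to P56, 1 rose in Purkinje cells against 1.58% called, Kcng4 (1.78, adjusted p = 0.00487), while Kcnh3 differed by -0.78. Among Stellate/Basket arrays 1 rose and 4 fell over these ages against 15.4% called, among them Kcnd3 (-3.06) and Kcna1 (-1.45). These rest on the P56 arrays, where interneuron markers fell (median -4.44) and Purkinje and glial markers rose (medians 3.91 and 3.46). The change differed between the cell types for 5 of the 23, 4 upward and 1 downward, a share near the 16.0% of all probe sets called, with the largest difference at Kcnd3 (3.42).

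Among sodium channel and calcium buffer genes of fast-firing neurons (6 tested of 7), 3 were higher and 1 lower in Purkinje cells on average, against 9.19% of all probe sets called, with a median of 1.02. Scn4b, the beta subunit known for resurgent sodium current, was higher by 3.78 (adjusted p = 6.40e-21), Scn2b by 1.45 and Scn1a by 1.19, and Fgf14 was lower (-1.50). From P3 to P56 in Purkinje cells 4 rose and 0 fell, against 13.6% called, with a median of 2.92: Scn4b (5.79), the calcium buffer gene Pvalb (5.03), Scn1a (3.11) and Scn2b (2.73). Scn4b went from 5.69 ± 0.10 (SD, n = 3) at P7 to 10.86 ± 0.12 (n = 3) at P14, the step in which Kcnc1 rose. From P14 to P56, 0 of the 6 were called with limma in Purkinje cells and 0 had an unadjusted p under 0.05 (Scn8a 0.57, Scn4b 0.56), and in Stellate/Basket cells Scn4b (3.74) and Scn2b (1.10) rose, on the P56 arrays with high Purkinje markers. The change differed between the cell types for 3 of the 6, against 16.0% called, with Scn4b at -3.17.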

How the data were processed

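Expression was measured on 42 deposited columns, and the log2 values were used as the authors deposited them; the submitters' processing notes name GCRMA and R 2.9.1, with no role or order given. Columns were mapped to samples by title. Stellate/Basket P35 replicate 3 and P56 replicate 2 equalled the mean of other columns of their group (tolerance 1e-08) and were left out, leaving 40 arrays.

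Probe sets above log2 5 on at least 3 arrays (41895) were fitted with limma 3.58.1 (R 4.3.3; 1 mean for each of 12 groups, empirical Bayes with a trend), and p-values are two-sided with Benjamini-Hochberg adjustment over all of them. The fit was tested on simulated data with independent noise and known changes. That test cannot show how the fit does on samples of mixed cell types. p-values measure the spread between arrays pooled over groups. Replicate numbers did not pair samples and no block was used. Of all probe sets, 34958 have 1 symbol in the annotation, 932 several and 9211 none.

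The members and gene lists were chosen with earlier results of these data known. Each marker gene, listed gene and gene of the likeness ranking was read from its probe set of highest mean level. Named from each list were up to 4 called genes with the largest difference, or the largest 2 where fewer than 2 were called; the 4 likest genes skip clone and model names. Alternatives changed the filter, variance model, weights, scaling, probe set summary, columns, groups, covariates, ages and arrays.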

Additional observations from a re-analysis of the deposited data

Results flagged for a closer look

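Kcnc1 in Purkinje cells at P21 had 1 array far from the rest: replicate 1 of the brightest probe set (1423559_at) was at 8.78, the others at 10.05 to 10.25. On the Kcnc1 probe set 1456944_at, Purkinje P28 replicate 2 was at 6.99 with the others at 6.43 to 6.50. On the same probe set Purkinje P56 replicate 1 was at 6.66 with the others at 6.29 to 6.33. These 3 came from 42 tests with Dixon's criterion, 1 for each probe set in each group of 4 arrays. The criterion picks out about 1 in 20 tests by chance, and the 42 tests share arrays.

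The change from P14 to P56 differed between the cell types by 1.83 for Kcnc4 (1425090_s_at), which fell in Stellate/Basket cells and was not called in Purkinje cells. It differed by -1.20 for the Kcnc1 probe set 1456965_at, where neither cell type's own change was called.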

How the results depend on the processing

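Differences called in neither setting were counted as unchanged whatever their sign. Kcnc1 (1423559_at) in Purkinje cells from P3 to P56 was no longer called as the mean of its probe sets (0.53) or with P7 as the first age (0.85). Its difference between cell types in the P14 to P56 change became called after quantile normalization (-1.52), with all 42 columns or only the groups compared (-1.10 each) and with Xist as a covariate (-1.24), and ran from -1.51 to -0.68 on leaving out each array. Kcnc4 (1425090_s_at) as the mean of its probe sets lost the Purkinje P3 to P56 call (-0.92) and the difference between cell types in the P14 to P56 change (0.51). With P35 as the last age the latter was 0.22 and the Stellate/Basket change -0.38. For Kcnc1 1443855_at, the Stellate/Basket change from P14 reversed with P35 as the last age (1.27), and the cell type difference at P56 reversed without Stellate/Basket P56 replicate 3 (-0.056) and ran from -0.056 to 2.94 on leaving out each array. Members called in the Stellate/Basket change numbered 1 with the glial covariate or P35 as the last age and 1 to 4 on leaving out each array. In the difference of changes they numbered 4 after quantile normalization, 0 with P35 as the last age (limma; 1 at an unadjusted p under 0.05) and 2 to 4 on leaving out each array. Calls of the 7 probe sets over the 5 shared ages numbered 9, but 5 with the glial covariate, and over the steps 6, but 3 with only the groups compared. With the glial covariate calls over all probe sets dropped too, from 3851 to 2519 for the cell type average. Fewer calls under that setting are thus not particular to the members. Except where a construction shows it (fewer arrays, fewer groups), the cause was not tested.

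Over all probe sets, calls numbered 660 (158 to 1093 over the alternatives) for Purkinje P14 to P56 and 6456 (2159 to 8133) for Stellate/Basket P14 to P56. They numbered 6688 (851 to 9199) for the difference of changes and 3851 (2519 to 4233) for the cell type average. The low ends 158, 2159 and 851 and the high end 4233 had P35 as the last age. Those 4 values thus count comparisons without P56. Centring each array moved the median difference of all probe sets from -0.14 to 0.00 for the difference of changes and from -0.11 to 0.04 at P56. Residuals of arrays with the same replicate number correlated at -0.01 on average (191 pairs) and others at 0.00 (539). With the replicate block the Kcnc4 average was -2.67, and the calls for Kcnc1 at P35 (0.97) and 1443855_at at P14 (1.03) ended. The limits include 2 arrays in each of 2 Stellate/Basket groups and a P56 pair whose markers go against the label. Kcnc2 values near the bottom of the scale are another limit. Before P14, Purkinje samples also carried high interneuron markers, and every age difference starting at P3 or P7 rests on those samples. Xist lay above 9 on 27 of 40 arrays labelled male, and at P14 this Xist split cannot be told apart from cell type.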
